A study of Homo sapiens with 6 samples.

Results

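The classic oestrogen-responsive target genes are transcripts that the hormone-bound oestrogen receptor induces in breast cancer cells and that are widely read as a sign of its activity. The list held 10 genes: TFF1, GREB1, PDZK1, CA12, IGFBP4, SIAH2, AREG, CELSR2, RERG and NRIP1. Every probe set whose annotation names exactly 1 gene, and that gene one of these, was taken, which gave 21 probe sets of 8 genes out of 44988 probe sets of 18132 genes on the array. The 2 probe sets listed for PDZK1 name its pseudogene too, and the annotation used here lists none for AREG, so these 2 genes are not described.

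The cells were SH-SY5Y, an established human neuroblastoma line of sympathetic, neuron-like character. The groups were cells given the organochlorine insecticide endosulfan (3 µM, 24 h, which the labels place below the LC50) and cells labelled control, with 3 arrays in each group. Both groups grew in serum-containing MEM and F12 medium, and the labels state neither whether its serum was stripped of steroids nor what was added to the control cells. The arrays are called biological replicates with no culture or day named, so p-values measure the spread between these samples, which may be technical.

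Oestrogen acts mainly through the nuclear receptors ESR1 and ESR2, which bind response elements in DNA, or bind through partner factors such as AP-1 and SP1, and recruit coactivators. The membrane receptor GPER1 carries faster signals. In breast cancer cells TFF1, GREB1 and PDZK1 are strongly induced through ESR1, and endosulfan has been described as a weak oestrogen mimic in such cells. Neuroblastoma cells are not a classic target tissue of the hormone.

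None of the 21 probe sets passed the test. The smallest adjusted p was 0.215, for a GREB1 probe set that was lower in every endosulfan array, at a log2 fold change of -0.81. At an unadjusted p below 0.05, 0 of the 21 were higher, a count that reached 2 without control 2, both of IGFBP4, and 2 with array weights. The largest difference in the higher direction was that of IGFBP4, at a log2 fold change of 0.32. The 95% intervals of all 21 probe sets ended below a 2-fold rise, the highest upper bound being 1.75-fold. These intervals bound the array values. Of the 21 sets, 10 lay below the array medians on all arrays, where a change of the transcript could be compressed.

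The promoters of 3 members are shown, SIAH2 and CELSR2 because their brightest probe sets lay above the array medians with a lower mean in endosulfan arrays, and CA12 because it was the one described member with a single promoter window that held the core motif of the oestrogen response element. Each is the 250 bases before the gene's start, from RefSeq on GRCh38.p14, read 5′ to 3′ on the gene's strand. Capitals mark GGGCGG, the GC box that SP1 binds, in CELSR2 and SIAH2, and GGTCA, the core of the response element, in CA12. They lie at chr1:109249289-109249538 (plus strand), chr3:150763170-150763419 (minus strand) and chr15:63381847-63382096 (minus strand).
CELSR2: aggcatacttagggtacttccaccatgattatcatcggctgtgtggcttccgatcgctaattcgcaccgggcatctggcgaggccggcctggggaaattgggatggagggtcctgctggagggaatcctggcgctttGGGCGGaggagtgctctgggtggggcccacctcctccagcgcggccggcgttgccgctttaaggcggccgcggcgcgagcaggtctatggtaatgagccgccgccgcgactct
SIAH2: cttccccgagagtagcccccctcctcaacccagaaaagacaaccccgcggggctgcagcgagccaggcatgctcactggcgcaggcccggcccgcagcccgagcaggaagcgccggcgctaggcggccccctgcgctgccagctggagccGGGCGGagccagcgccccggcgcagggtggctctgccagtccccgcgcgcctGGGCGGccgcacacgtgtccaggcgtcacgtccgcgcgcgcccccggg
CA12: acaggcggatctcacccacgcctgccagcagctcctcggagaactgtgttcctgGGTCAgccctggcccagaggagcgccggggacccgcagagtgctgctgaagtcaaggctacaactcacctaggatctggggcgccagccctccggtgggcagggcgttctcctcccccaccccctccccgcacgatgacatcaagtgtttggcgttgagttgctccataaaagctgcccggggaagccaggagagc

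RefSeq promoter windows were matched for 7 of the 10 genes, 10 windows in all, by gene symbol. TFF1, GREB1 and RERG had no window, so their promoters were not searched. The full oestrogen response element, GGTCA facing its reverse complement TGACC across any 3 bases, was in 0 of the 10 windows and in 0.0399% of all 35116 promoter windows. At so low a share the count of 0 says little about these genes, and bases further off were not searched. The core of this element, GGTCA, is contained in the full element and was searched on both strands. It was found in 4 of the 10 windows, against 32.6% of all windows, and by gene in 3 of 7, CA12, NRIP1 and PDZK1. The PDZK1 windows overlap, and both held it. In CA12 it starts 196 bases before the gene's start. GGGCGG, searched on both strands, was found in 7 of the 10 windows, several of them of NRIP1, against 42.6% of all windows. By gene it was found in 5 of 7, AREG, CELSR2, IGFBP4, NRIP1 and SIAH2. It was not particular to genes with a lower mean, since all 4 probe sets of IGFBP4 were on the higher side. No share of all genes was counted for either motif. GGGCGG starts 113 bases before the start of CELSR2, and 100 and 48 bases before that of SIAH2. These matches describe letters and no binding was measured here.

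TFF1 encodes a secreted trefoil peptide of mucous epithelia and is the most used read-out of ESR1 in breast cancer cells. Its single probe set had log2 levels of 4.33, 3.99 and 3.98 in endosulfan arrays, against 3.83, 4.22 and 4.17 in control arrays. Endosulfan 1 was the highest array and control 1 the lowest, and the groups overlapped. The log2 fold change was 0.03 ± 0.15 (SE), with a 95% interval from 0.802-fold to 1.30-fold and an adjusted p of 0.936, here and below from limma with Benjamini-Hochberg adjustment over all probe sets. All 6 values lay below the array medians, which were 4.89 to 4.94. Without control 1 and endosulfan 1 the log2 fold change of TFF1 was -0.21, so its direction rested on those arrays.

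GREB1 is a chromatin-bound cofactor of ESR1 that oestrogen induces early and that takes part in hormone-driven growth. Its brightest probe set had log2 levels of 7.27, 7.39 and 7.23 in endosulfan arrays, against 8.54, 7.71 and 8.06 in control arrays. Every endosulfan array lay below every control array, and the control arrays spread over a wider range than the endosulfan arrays. The means were 7.30 ± 0.08 in endosulfan and 8.10 ± 0.42 in control arrays (log2, SD, n = 3 each). Its log2 fold change was -0.81 ± 0.20 (SE), a level 1.75-fold lower in endosulfan cells, with an unadjusted p of 0.0037 and an adjusted p of 0.215 in the limma fit over all probe sets. The 95% interval ran from 0.416-fold to 0.785-fold. In these bulk samples fewer cells with a transcript and less of it per cell cannot be told apart.

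The other GREB1 probe sets did not show this difference. Annotated to RefSeq transcripts, they had log2 levels of 5.20, 4.94 and 5.21 in endosulfan arrays, against 5.05, 5.05 and 5.21 in control arrays, and of 3.37, 3.35 and 3.16 in endosulfan arrays, against 3.34, 3.24 and 3.44 in control arrays. Their log2 fold changes were 0.01 ± 0.12 (SE) and -0.05 ± 0.11 (SE), and their groups overlapped. Both were far dimmer than the brightest set. The first lay close to the array medians. The second, at a mean of 3.32, lay near the medians of the array's background probe sets, 3.01 to 3.22. There a change could be compressed, so these sets are a weak check on the brightest. The brightest probe set, annotated to a cDNA clone, carries the suffix x, which on these arrays marks a set in which some probes also match other transcripts, and whether such transcripts contribute was not tested. With the mean of the 3 probe sets the log2 fold change of GREB1 was -0.28 ± 0.10 (SE). Without control 1 that of the brightest set was -0.59, and with the level of the spiked-in poly-A transcripts as a covariate it was -0.42.

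**Figure D1:**
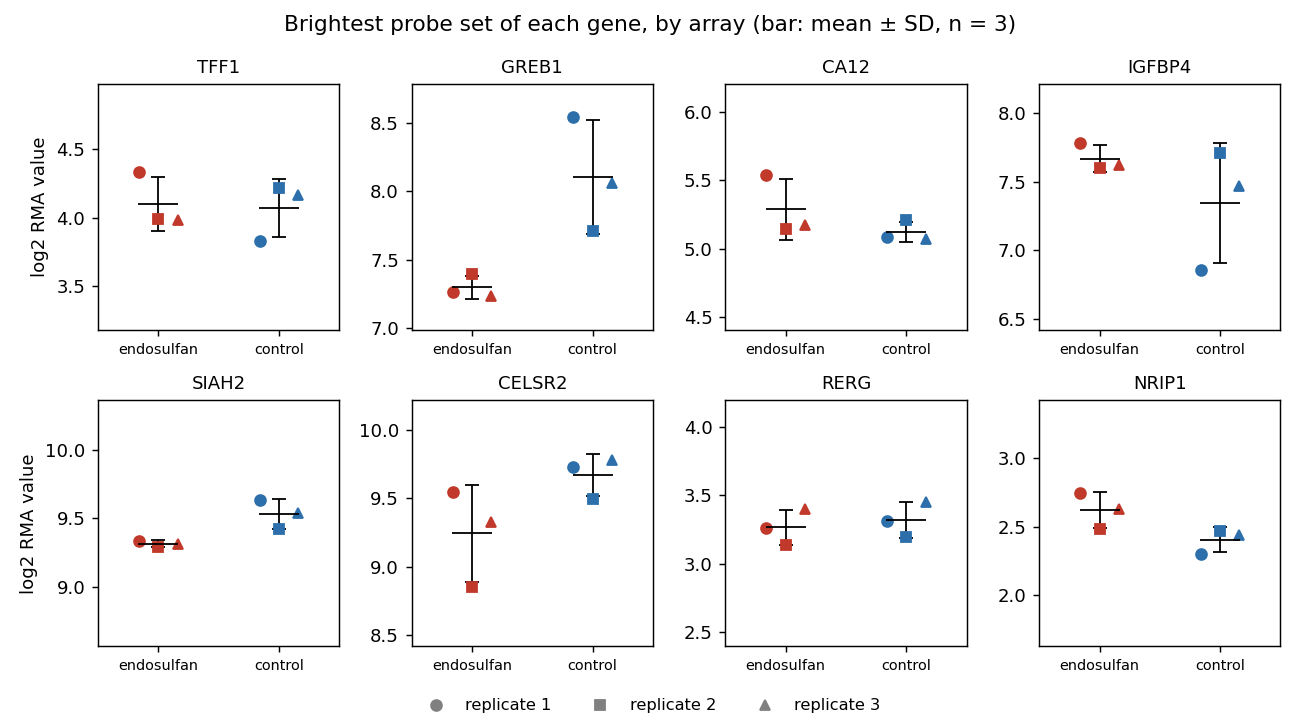
Log2 RMA value (vertical axis, the same span of 1.8 in each panel) of the brightest probe set of each of the 8 genes, in endosulfan arrays (red, left) and control arrays (blue, right); shapes give the replicate number and bars the mean ± SD (n = 3). GREB1 and SIAH2 lie lower in every endosulfan array, NRIP1 lies higher by a narrow margin, and the groups of the other 5 genes overlap.

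CELSR2, a seven-pass cadherin of planar cell polarity that is also expressed in neurons, had the next smallest unadjusted p. The log2 levels of its brightest probe set were 9.55, 8.85 and 9.33 in endosulfan arrays, against 9.73, 9.50 and 9.78 in control arrays. Endosulfan 2 was well below all other arrays, while endosulfan 1 lay above control 2, so the groups overlapped. For this set the log2 fold change was -0.43 ± 0.18 (SE), with an unadjusted p of 0.049 and an adjusted p of 0.320 in limma. Its second probe set, whose suffix s marks probes shared between transcripts, had log2 levels of 7.68, 7.19 and 7.53 in endosulfan arrays, against 7.80, 7.56 and 7.90 in control arrays. It followed the first in order of the endosulfan arrays and had a log2 fold change of -0.29 ± 0.16 (SE). Without endosulfan 2 the log2 fold change of the brightest set was -0.23, so 1 array gave much of its size.

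SIAH2, a RING ubiquitin ligase that targets proteins for the proteasome, had log2 levels of 9.34, 9.29 and 9.31 in endosulfan arrays, against 9.63, 9.42 and 9.53 in control arrays on its brightest probe set. The endosulfan arrays were nearly level and all below the control arrays. This gave a log2 fold change of -0.21 ± 0.10 (SE), with an unadjusted p of 0.0702 and an adjusted p of 0.356 in limma. The 95% interval, from 0.731-fold to 1.02-fold, held no rise above 1.02-fold. The second SIAH2 probe set had log2 levels of 5.27, 5.05 and 5.07 in endosulfan arrays, against 5.01, 5.21 and 5.16 in control arrays. Its groups overlapped and its log2 fold change was 0.00.

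IGFBP4 encodes a secreted protein that binds insulin-like growth factors and holds them from their receptor. Its 4 probe sets were all on the higher side, with log2 fold changes from 0.20 to 0.32. The brightest had log2 levels of 7.78, 7.60 and 7.62 in endosulfan arrays, against 6.85, 7.71 and 7.47 in control arrays. Control 1 was the lowest array on each of the 4 probe sets, and control 2 lay among the endosulfan arrays on the brightest. Its log2 fold change was 0.32 ± 0.21 (SE), with an adjusted p of 0.473 in limma and a 95% interval from 0.898-fold to 1.75-fold. Without control 1 it was 0.08, so the difference rested on that array. The 3 other probe sets had log2 fold changes of 0.20 ± 0.10 (SE), 0.26 ± 0.22 (SE) and 0.30 ± 0.17 (SE). The first of these, with the suffix x, had log2 levels of 6.31, 6.16 and 6.19 in endosulfan arrays, against 5.91, 6.07 and 6.08 in control arrays. The last, with the suffix s, had 4.96, 4.91 and 5.07 in endosulfan arrays, against 4.29, 4.89 and 4.87 in control arrays. The groups did not overlap on either, on the last by a narrow margin.

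CA12, a membrane carbonic anhydrase that hydrates carbon dioxide outside the cell, is induced by oestrogen through a distal enhancer in breast cancer cells. Its brightest probe set had log2 levels of 5.54, 5.15 and 5.17 in endosulfan arrays, against 5.09, 5.21 and 5.07 in control arrays. Endosulfan 1 stood above the other 5 arrays, and control 2 above the remaining endosulfan arrays. Between the groups the log2 fold change was 0.16 ± 0.13 (SE), with an adjusted p of 0.571 in limma. Without endosulfan 1 it was 0.04, so the difference rested on that array. All 5 CA12 probe sets were on the higher side, with log2 fold changes from 0.02 to 0.19, and none had an unadjusted p below 0.05. The log2 levels of the 5 sets ran from 2.78 to 5.54 over all arrays.

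NRIP1, or RIP140, is a corepressor that oestrogen induces and that then limits the receptor's activity. Its brighter probe set had log2 levels of 2.75, 2.49 and 2.63 in endosulfan arrays, against 2.30, 2.47 and 2.44 in control arrays, and its other probe set had 2.33, 2.32 and 2.41 in endosulfan arrays, against 2.68, 2.45 and 2.56 in control arrays. The groups did not overlap on either set, but the sets differed in direction, with log2 fold changes of 0.21 ± 0.11 (SE) and -0.21 ± 0.11 (SE). The adjusted p was 0.391 and 0.373 in limma. All NRIP1 values lay below the array medians, and the mean of both sets gave a log2 fold change of 0.00.

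RERG, a RAS-like GTPase that slows growth in breast cancer cells, had log2 levels of 3.26, 3.14 and 3.40 in endosulfan arrays, against 3.31, 3.19 and 3.45 in control arrays on its brighter probe set. The groups overlapped, with a log2 fold change of -0.05 ± 0.12 (SE). The other set had log2 levels of 3.10, 2.62 and 2.83 in endosulfan arrays, against 2.84, 2.75 and 2.88 in control arrays, and a log2 fold change of 0.03 ± 0.14 (SE). The adjusted p was 0.856 and 0.936 in limma. All RERG values lay below the array medians.

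**Figure D2:**
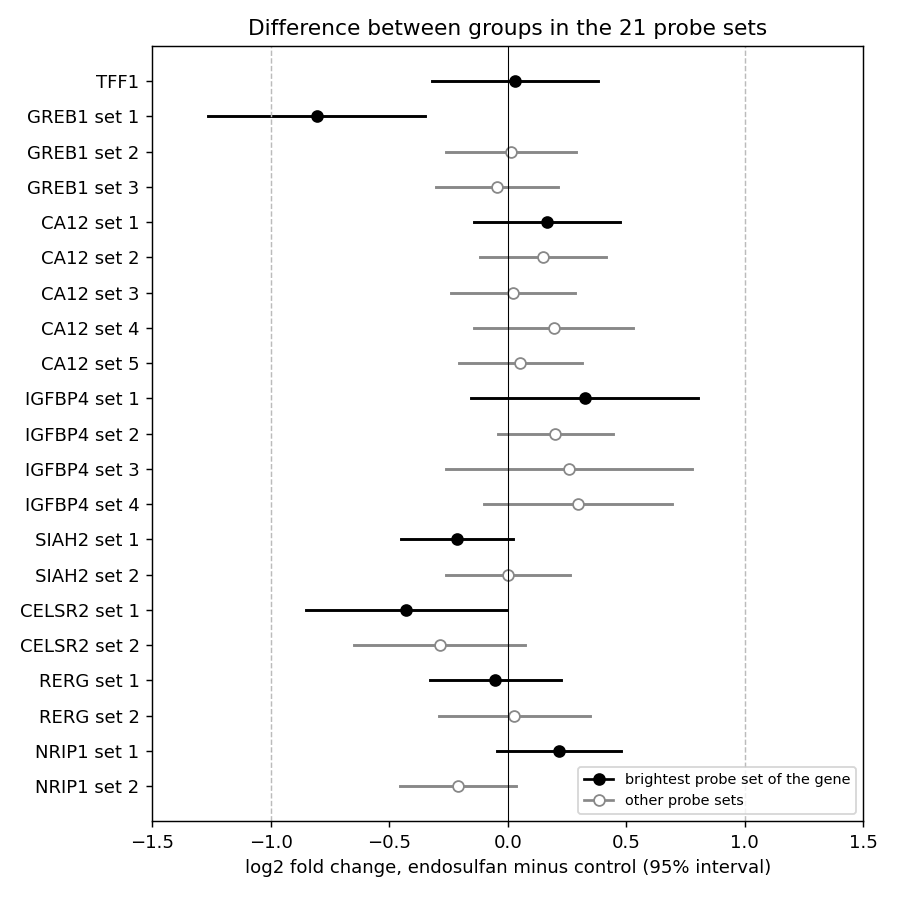
Log2 fold change, endosulfan minus control (horizontal axis), of the 21 probe sets, with 95% intervals from limma; filled points are the brightest set of each gene, sets are numbered from bright to dim, and dashed lines mark a 2-fold difference either way. GREB1 set 1, at -0.81, and CELSR2 set 1, at -0.43, are the ones whose interval ends below 0, and no interval reaches a 2-fold rise. Of the 21 sets, 10 lay below the array medians on all arrays, where a change could be compressed.

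Counted together, 14 of the 21 probe sets had a log2 fold change above 0 and 7 below. Over all 49293 probe sets 29633 were above 0 and 19660 below, so most of the array leaned the same way. At an adjusted p below 0.05 in limma 0 of the 21 passed, where 0.00811% of all 49293 probe sets did. At an unadjusted p below 0.05 there were 0 on the higher side, against 6.30% of all probe sets, and 2 on the lower side, GREB1 and CELSR2, against 9.21% of all probe sets. The 2 of 21 is near the background share. The 3 endosulfan arrays were all above the 3 control arrays on 3 of the 21, against 11.5% of all probe sets, and all below them on 3 of the 21, against 9.24%, so both counts too were near the background. By the brightest set of each of the 8 genes the groups were apart in 1 gene on the higher side, NRIP1, where 12.4% of all genes were, and in 2 on the lower side, GREB1 and SIAH2, where 10.2% were. The median log2 fold change of the 8 genes by their brightest probe set was -0.01, against 0.05 over all 18132 genes.

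Among members with several probe sets, all 5 sets of CA12 and all 4 of IGFBP4 lay on the higher side and both sets of CELSR2 on the lower side. The sets of GREB1, SIAH2, NRIP1 and RERG had mixed signs. The array that stood lowest was control 1 on 8 of the 21 probe sets and endosulfan 2 on 7, and endosulfan 1 was the highest on 8.

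**Figure D3:**
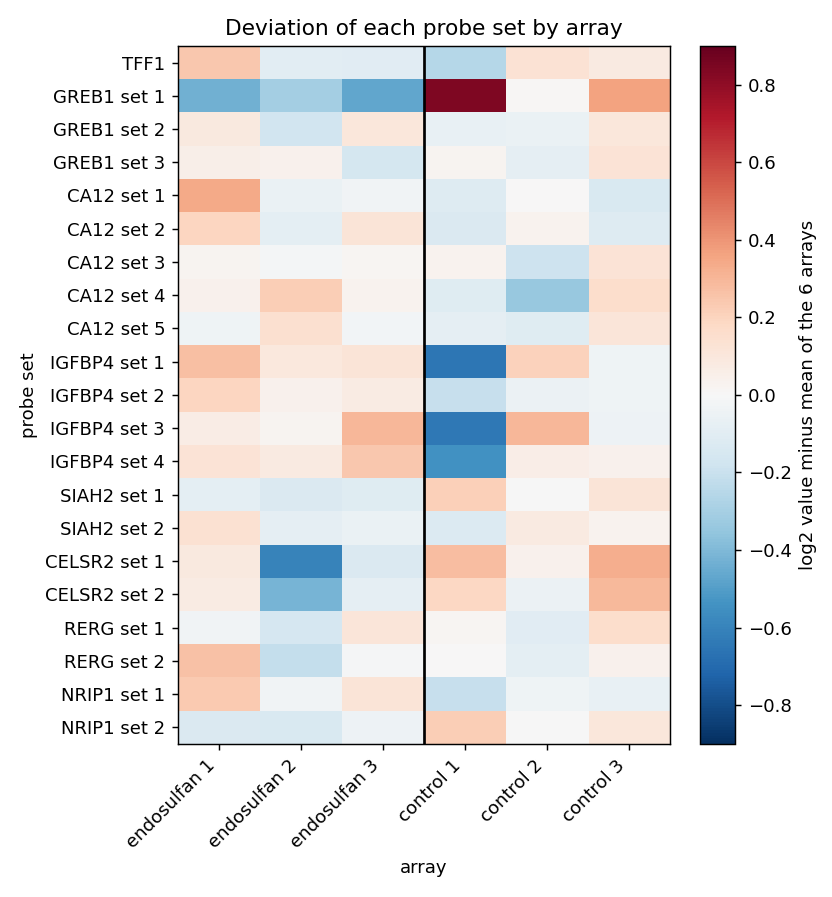
Log2 value of each of the 21 probe sets (rows, numbered from bright to dim within a gene) minus its mean over the 6 arrays, by array (columns, endosulfan left of the line and control right of it). The 4 IGFBP4 rows are lowest in control 1, GREB1 set 1 is highest there, and both CELSR2 rows are lowest in endosulfan 2.

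The arrays themselves were not alike. Poly-A transcripts added as a labelling control averaged, on the log2 scale, 8.11 ± 0.60 in endosulfan and 6.57 ± 1.02 in control arrays (SD, n = 3 each), with a two-sided exact permutation p of 0.2, where 0.1 is the smallest that 3 arrays against 3 allow. Control 2, at 7.73, was level with endosulfan 1 and 2, at 7.81 and 7.73, while control 1 was at 6.13, and the part of this in the members' differences was not tested beyond the covariate fit. As a sign of RNA quality, the 3′ probe set of GAPDH exceeded its 5′ probe set by 0.84 ± 0.04 in endosulfan and 0.75 ± 0.06 in control arrays (log2, SD, n = 3 each). Its groups did not overlap, with a two-sided exact permutation p of 0.1, and its part in the members' differences was not tested. On the 3 arrays with like spike-in levels the log2 level of GREB1 was 7.27 and 7.39 in endosulfan 1 and 2, against 7.71 in control 2. These arrays hold 1 control array, so no difference between groups was tested on them. Of 14 neuroblastoma markers 13 were measured, among them HAND2, at log2 levels of 13.31, 13.07 and 13.16 in endosulfan arrays, against 13.20, 13.19 and 13.19 in control arrays. At an unadjusted p below 0.05 there were 4 lower and 0 higher of the 13, where 10.9% and 7.45% of all genes were, and 0 had an adjusted p below 0.05. The 4 were ISL1, STMN2, MYCN and GATA3, with log2 fold changes of -1.33, -1.05, -0.48 and -0.35, each with every endosulfan array below every control array, and their part in the members' differences was not tested. The mean log2 level of the 13 was 10.92 to 10.97 in endosulfan and 11.15 to 11.25 in control arrays. The list as a whole did not fall, since 6 of the 13 had a positive log2 fold change and 7 a negative one. Their median was -0.01. Nor were lower markers particular to this list. Of 8 fibroblast markers, 3 met the same unadjusted limit with a lower level and 1 with a higher level. The 10 luminal epithelial markers measured had means of 4.92 to 4.99 in endosulfan and 4.71 to 4.92 in control arrays, but differed in level. The epithelial cell adhesion gene EPCAM was at 3.17 to 3.40 in endosulfan and 3.12 to 3.31 in control arrays, below the array medians. The keratin gene KRT19 lay above them, at 7.44, 7.15 and 7.17 in endosulfan arrays, against 6.37, 7.24 and 6.99 in control arrays.

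The receptors came next along the pathway, and none of them passed the test. ESR1, the nuclear receptor behind the classic response, had log2 levels of 6.35, 6.26 and 6.17 in endosulfan arrays, against 6.10, 6.14 and 6.23 in control arrays on the brightest of its 5 probe sets. The groups overlapped, and the adjusted p was 0.655 in limma at a log2 fold change of 0.10. This ESR1 set too carries the suffix x. Over the 5 sets 3 were on the higher side and 2 on the lower, with log2 levels from 2.81 to 6.35. On the dimmest every endosulfan array lay below every control array, at a log2 fold change of -0.25. ESR2 had 5.34, 5.29 and 5.36 in endosulfan arrays, against 5.25, 5.21 and 5.23 in control arrays, on the brightest of 8 sets, and the endosulfan arrays lay above by a narrow margin, at an adjusted p of 0.622. GPER1 had 7.46, 7.36 and 7.48 in endosulfan arrays, against 7.05, 7.44 and 7.32 in control arrays, with overlapping groups and an adjusted p of 0.554. The orphan oestrogen-related receptors do not bind the hormone. ESRRA had a log2 fold change of 0.20 and ESRRB of 0.24. For ESRRB the unadjusted p was 0.0471 and the adjusted p 0.316 in limma. At an unadjusted p below 0.05, 7.45% of all genes were higher. Its log2 levels ran from 2.84 to 3.24, near the medians of the array's background probe sets, 3.01 to 3.22. ESRRG had 6.13, 7.33 and 7.00 in endosulfan arrays, against 7.58, 7.33 and 7.39 in control arrays. All 7 of its probe sets were on the lower side, with log2 fold changes from -0.79 to -0.12, 4 of them at an unadjusted p below 0.05, where 9.21% of all probe sets were lower, and none at an adjusted p below 0.05. On the brightest the log2 fold change was -0.62, and -0.27 without endosulfan 1.

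Coregulators and pioneer factors, which open chromatin for the receptor or pass on its signal, had 14 of 18 genes measured. At an unadjusted p below 0.05 there were 3 lower and 0 higher, where 10.9% and 7.45% of all genes were, and 0 had an adjusted p below 0.05, against 0.00552% of all genes. The acetyltransferase CREBBP had log2 levels of 7.52, 7.80 and 7.60 in endosulfan arrays, against 8.97, 8.27 and 8.55 in control arrays, and all 5 of its probe sets were on the lower side. The coactivator NCOA1 had 5.61, 5.82 and 6.05 in endosulfan arrays, against 7.01, 6.25 and 6.94 in control arrays, with all 6 probe sets on the lower side. In both genes every endosulfan array was below every control array, and the adjusted p was 0.215 in limma. GATA3, a pioneer factor in breast and a lineage factor in sympathetic cells, had 11.53, 11.64 and 11.64 in endosulfan arrays, against 12.11, 11.86 and 11.90 in control arrays, with an adjusted p of 0.235. The Mediator subunit MED1 overlapped between groups, at a log2 fold change of -0.58.

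A wider list of oestrogen-responsive genes had 47 of 50 genes measured, with a median log2 fold change of 0.04. Of the 47, 26 were above and 21 below a log2 fold change of 0, where 10907 and 7225 of all 18132 genes were. At an unadjusted p below 0.05 there were 8 lower and 0 higher, where 10.9% and 7.45% of all genes were, and 0 passed an adjusted p below 0.05. The receptor tyrosine kinase RET had log2 levels of 7.44, 7.26 and 7.16 in endosulfan arrays, against 8.53, 8.11 and 8.02 in control arrays, a log2 fold change of -0.94 on its brightest set, while 2 of its 3 probe sets were on the higher side. The growth regulator MYC had 10.47, 10.58 and 10.66 in endosulfan arrays, against 11.06, 11.26 and 11.09 in control arrays, on a single probe set, a log2 fold change of -0.57. The insulin-like growth factor receptor IGF1R and the GABA-degrading enzyme ABAT had log2 fold changes of -1.13 and -0.64, each with some probe sets of the opposite sign. These 4 genes had groups that did not overlap and an adjusted p of 0.215 in limma.

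Families of the members were set beside them. Among 13 of 14 genes of the insulin-like growth factor axis, to which IGFBP4 belongs, IGFBP5 was at log2 levels of 9.55, 9.86 and 9.57 in endosulfan arrays, against 10.65, 10.10 and 10.30 in control arrays, a log2 fold change of -0.69. IGFBP6 was at 7.56, 7.51 and 7.38 in endosulfan arrays, against 6.34, 7.39 and 6.87 in control arrays, and endosulfan 3 lay just below control 2, so that the groups overlapped. Their adjusted p was 0.215 and 0.288 in limma, and 1 gene of the axis was higher and 3 lower at an unadjusted p below 0.05, where 7.45% and 10.9% of all genes were.

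The EGF ligands and receptors, the family of AREG, had 11 of 12 genes measured, with 1 higher and 1 lower at an unadjusted p below 0.05, where 7.45% and 10.9% of all genes were. The ligand HBEGF had log2 levels of 6.83, 6.60 and 6.77 in endosulfan arrays, against 6.41, 6.52 and 6.27 in control arrays, every endosulfan array being the higher. Its adjusted p was 0.263, and that of the sheddase ADAM17, whose log2 fold change was -0.92, was 0.265 in limma. ADAM17 had 2 of its 4 probe sets on the higher side.

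The 3 trefoil factors and the 14 of 15 carbonic anhydrases measured held no gene at an unadjusted p below 0.05. TFF2, a gastric trefoil peptide, had log2 levels of 4.92, 4.55 and 4.64 in endosulfan arrays, against 4.40, 4.50 and 4.35 in control arrays. For the mitochondrial carbonic anhydrase CA5B the adjusted p was 0.340 in limma and the log2 fold change 0.26. The 11 paralogues of the remaining members held 1 gene at an unadjusted p below 0.05, SIAH3, on the higher side. Of all genes 7.45% were higher and 10.9% lower at that limit. The log2 levels of SIAH3 were 2.70, 2.73 and 2.91 in endosulfan arrays, against 2.55, 2.50 and 2.55 in control arrays. All of them lay below the medians of the array's background probe sets, 3.01 to 3.22, where a change could be compressed.

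**Figure D4:**
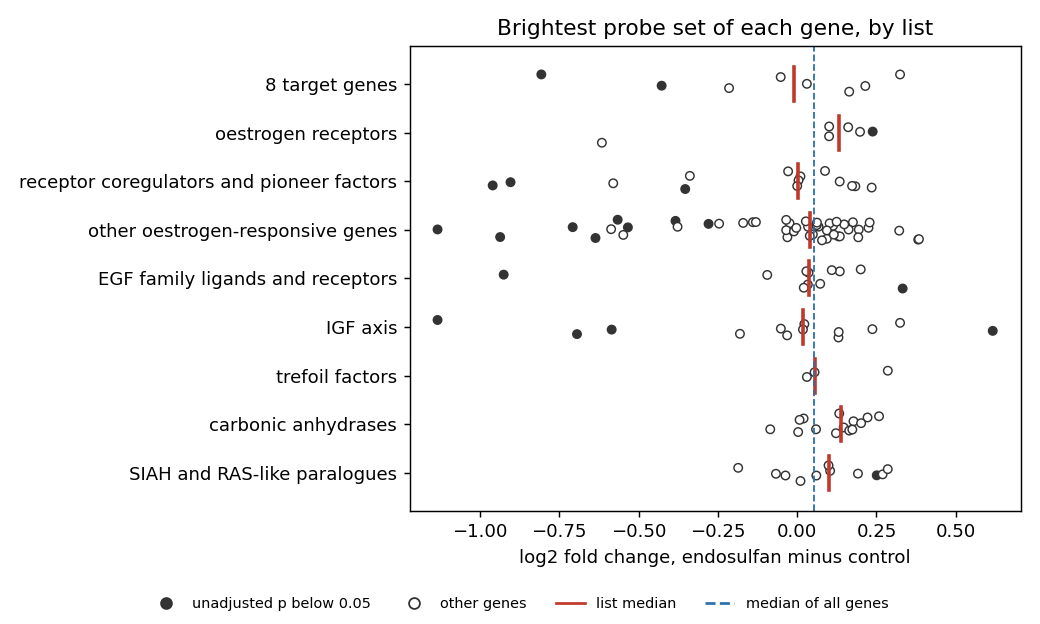
Log2 fold change, endosulfan minus control (horizontal axis), of the brightest probe set of each gene in the 8 target genes and in the lists of related genes; filled points have an unadjusted p below 0.05, red bars are list medians and the dashed line is the median of all genes, 0.05. The list medians lie between -0.01 and 0.14, and no gene drawn passed an adjusted p below 0.05.

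Among the brightest probe sets of the 8 genes that of GREB1 had the widest range over the 6 arrays. Of 11671 other genes with a mean level above the median, the 3 whose log2 values were most like it by Pearson's r over the 6 arrays were NEO1, a netrin receptor relative, at 0.999, PDPR, a regulator of pyruvate dehydrogenase, at 0.999, and the zinc finger gene ZNF609, at 0.997. The values come from the same 6 arrays in 2 groups, and the 3 genes were picked as the highest. An r above 0.9, a looser limit, was common, with 10.4% of the genes compared.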

How the data were processed

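RNA of 6 samples was measured on 1-colour Affymetrix arrays. The authors deposited 1 table of log2 values made with Affymetrix Expression Console and RMA, per the submitters' processing notes. RMA subtracts background, equalises the distribution of all arrays and combines probes into sets, so a shift of most transcripts 1 way is lost. No version or option is stated, and scanner intensities were not used. Of 49395 rows, 102 control probe sets were set aside and 49293 tested. Groups came from the agent label. Endosulfan was compared with control with limma 3.58.1 (lmFit, eBayes) in R 4.3.3 on all 6 arrays, two-sided, with Benjamini-Hochberg adjustment over all probe sets and a threshold of 0.05. A gene in a list is represented by its brightest probe set naming that gene alone, by mean over the arrays. All 15 pairs of arrays differed, and Pearson's r across probe sets was 0.964 to 0.995. The number of arrays limits the precision. In simulated data for this comparison, over 49293 probe sets, 12%, 46%, 92% and 94% of 50 probe sets were recovered at log2 changes of 0.585, 1, 2 and 3. False calls were 9 of 131. The noise was drawn independently for each probe set, so deviations shared across an array were not simulated. The recovered shares may therefore not hold for these arrays. The members and lists were chosen with earlier results of these data known. Named genes are all members and up to 4 genes of each related list, by smallest p; ESR1, ESR2, HAND2 and EPCAM were added after their values were seen. Figures were drawn with matplotlib 3.10.9. As alternatives, a block for replicate number, 2 further normalizations, a filter on dim probe sets, 3 variance or weight models, a spike-in covariate, averaged probe sets per gene and fits without some arrays were tried.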

Additional observations from a re-analysis of the deposited data

Results flagged for a closer look

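The poly-A spike-in transcripts, which the comparison of genes does not use, were higher in endosulfan arrays by 1.55 on the log2 scale, at 8.11 ± 0.60 in endosulfan and 6.57 ± 1.02 in control arrays (SD, n = 3 each, two-sided exact permutation p = 0.2).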

How the results depend on the processing

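Over 16 alternatives to the settings of the report, 0 members had an adjusted p below 0.05 in limma except with array weights, where 1 did, GREB1 with an adjusted p of 0.0124 and a log2 fold change of -0.78; those weights gave 7101 calls over all probe sets and 19 among the 114 related genes, against 4 and 0 without them. At an unadjusted p below 0.05, member probe sets on the higher side numbered 0 in the report, 2 with array weights, 1 with trend and robust moderation, 1 without moderation, 1 with the spike-in covariate and 0 to 2 with 1 array left out; those on the lower side numbered 2 in the report, 4 with array weights, 3 without moderation, 1 with further quantile normalization, 1 with median centring, 1 among probe sets above the median level, 0 with the spike-in covariate and 1 to 3 with 1 array left out. The total of 4 calls became 0 with the replicate block, 0 without moderation of the variance, 0 with the spike-in covariate and 1 without control 1 and endosulfan 1, and ran from 0 to 7 with 1 array left out. The labels do not say whether samples with the same replicate number were paired. The deviations of same-numbered arrays from their group means correlated at -0.51, -0.40 and 0.05. With 3 arrays in each group these values cannot decide it. The median log2 fold change of the 8 genes, -0.01, was -0.21 over probe sets brighter than the median, a filter that leaves out TFF1, RERG and NRIP1, and ran from -0.07 to 0.05 with 1 array left out. The log2 fold change of TFF1 changed sign to -0.13 with array weights, -0.024 with the spike-in covariate, -0.21 without control 1 and endosulfan 1, -0.084 without endosulfan 1 and -0.090 without control 1, and that of RERG to 0.0030 with the spike-in covariate, 0.012 without endosulfan 2 and 0.015 without control 3. With 1 array left out TFF1 ran from -0.090 to 0.10, RERG from -0.12 to 0.015 and TFF3 from -0.061 to 0.13. With the spike-in covariate GPER1 (-0.0072), ESRRA (-0.035), EREG (-0.042), TFF3 (-0.15) and NHERF2 (-0.028) changed sign, as did ESRRA without control 1 and endosulfan 1 (-0.018) and TFF3 without endosulfan 3 (-0.061) and without control 1 (-0.032). The cause of these changes was not tested. GREB1 kept its sign in all 16 alternatives, from -1.004 to -0.28. Of the 21 member probe sets 10 lay below the array medians on all arrays. The array's 23 background probe sets had medians of 3.10 to 3.22 in endosulfan and 3.01 to 3.12 in control arrays. For TFF1, RERG, NRIP1, the dimmest GREB1 set and the CA12 sets other than the brightest, a change could therefore be compressed.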
